A study of Nothobranchius furzeri with 8 samples.

Results

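The microRNA families described here are those linked to developmental timing: let-7, mir-48, lin-4 and mir-10. They were chosen by name in a table of brain microRNA counts from Nothobranchius furzeri, the turquoise killifish, which lives for a single season. All 4 names had a row of their own, so the members are 4 of 324 features, and all 4 passed the filter on low counts that left 212 features for testing. The brains were those of male fish of the strain MZM-04/10p, and small RNA was sequenced in 4 libraries at 6 weeks and 4 at 26 weeks. No treatment or genetic change is given for either age, so age was the labelled difference. The titles of the older libraries carry 22 where the age label gives 26 weeks, and the age label was followed. The titles also number the libraries of each age I to IV, and the labels do not say whether libraries came from single fish, from pools or from separate fish, so p-values measure only the spread between these samples.

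In the nematode, where lin-4 and let-7 were discovered, these small RNAs switch larval cells to later fates by repressing lin-14, lin-28 and lin-41. The rows let-7 and mir-48 carry the names of nematode sisters that share a seed, the short stretch that pairs with target messages, and vertebrate let-7 is restrained by the RNA-binding protein Lin28. The name lin-4 covers vertebrate miR-125, which represses Lin28, and the name mir-10 covers miR-10, which lies within the Hox clusters, together with miR-99 and miR-100. In vertebrate brain, let-7 and miR-125 are abundant in differentiated neurons, and miR-10 is best known from the hindbrain and spinal cord. The table gives a single value per family, so paralogues and arms cannot be told apart, and let-7 and mir-48 may share reads where their sequences are alike.

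Libraries held 2992917 to 5715409 counts, and the total tended to be higher at 26 weeks. CPM is the count scaled by library size and TMM factor. Families known from neurons were mir-9, mir-124, mir-128, mir-137, mir-138, mir-153 and mir-218 (7 of 7 in the table, none at 0). They summed to 152641 to 168425 CPM at 6 weeks and 149947 to 170806 CPM at 26 weeks. Most of the sum was mir-9 and mir-128, at means of 70362 and 58396 CPM over the 8 libraries. Only mir-124 was called, with means of 3928 CPM at 6 weeks and 7454 CPM at 26 weeks. Its log2 difference was 0.92 (quasi-likelihood test of edgeR, Benjamini-Hochberg adjusted p = 0.0167 over all features). Libraries carrying the same number deviated together across features, so values with the number as a block are given where they change a call.

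The let-7 family was the second most abundant feature in each of the 8 libraries. At 6 weeks it stood at 106465 CPM in library I, 124899.8 in II, 170604 in III and 127702 in IV. At 26 weeks it stood at 133804 CPM in library I, 194684 in II, 232717 in III and 241014 in IV. Of the older libraries, II, III and IV lay above every younger one, but the older library I lay below the younger III, so the ages overlapped. The means were 132418 ± 27144 CPM at 6 weeks and 200555 ± 48858 CPM at 26 weeks (SD, n = 4 each), a fitted ratio of 1.51. The log2 difference of 0.60 ± 0.20 (SE, 95% interval 0.14 to 1.06) did not pass the quasi-likelihood test of edgeR (Benjamini-Hochberg adjusted p = 0.0889 over all features). Within each library number the older library was the higher one, by 0.33, 0.64, 0.45 and 0.92 on the log2 scale for I to IV. With the number as a block, let-7 rose by 0.58 ± 0.11 (edgeR, Benjamini-Hochberg adjusted p = 0.0125). It also passed without the 6-week library III (0.79, adjusted p = 0.0353), without the 26-week library I (0.75, adjusted p = 0.0128) and without both libraries I (0.64, adjusted p = 0.0168), by the same edgeR test. When the log2 total count was a covariate in edgeR, the difference was 0.14 ± 0.18 (adjusted p = 0.748), and total and age moved together in these libraries.

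The small mir-48 feature, which bears the name of a nematode let-7 sister, followed the same order of ages at a far lower level. Its raw counts were 588, 824, 1114 and 826 in the 6-week libraries I to IV and 847, 1909, 1671 and 1323 in the 26-week ones. In CPM these were 169, 232, 263 and 254 at 6 weeks, and 227, 388, 354 and 336 at 26 weeks. As for let-7, library I was the lowest of its age in both groups, and the older library I alone lay within the range of the younger ones. The means were 229.5 ± 42.5 and 326 ± 69.3 CPM (SD, n = 4 each), a fitted ratio of 1.42. The log2 difference of 0.51 ± 0.22 (SE, 95% interval 0.00084 to 1.01) did not pass (adjusted p = 0.170, Benjamini-Hochberg, in edgeR). With the number as a block, mir-48 rose by 0.50 ± 0.14 (edgeR, Benjamini-Hochberg adjusted p = 0.0406), and its differences within numbers I to IV were 0.43, 0.74, 0.42 and 0.40. When the log2 total was a covariate in edgeR, the difference of mir-48 was 0.053 ± 0.24 (adjusted p = 0.911). Counting error was at most 4.12% of a value, well below the 18.5% and 21.2% by which libraries of 6 and 26 weeks varied.

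The lin-4 family, the miR-125 name, varied least between libraries among the 4 members. It stood at 25752, 23041, 22333 and 26183 CPM in the 6-week libraries I to IV. At 26 weeks the values were 25278 in I, 35036 in II, 29119.9 in III and 27804 in IV. The older libraries II, III and IV lay above all younger ones, and the older I lay inside their range. The means were 24327 ± 1924 CPM at 6 weeks and 29309 ± 4137 CPM at 26 weeks (SD, n = 4 each), a fitted ratio of 1.20. The log2 difference of 0.27 ± 0.12 (SE, 95% interval -0.0016 to 0.54) did not pass (edgeR, Benjamini-Hochberg adjusted p = 0.172), nor did it with the block (0.26 ± 0.12, adjusted p = 0.144). Within numbers the differences were uneven, at -0.03, 0.60, 0.38 and 0.09 for I to IV. When edgeR took the log2 total as covariate, the difference of lin-4 was 0.14 ± 0.16 (adjusted p = 0.673).

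The mir-10 family differed far more between libraries of 1 age than between ages. It stood at 21541, 30503, 21527 and 18212 CPM in the 6-week libraries I to IV. At 26 weeks it stood at 10473 CPM in library I, 40311 in II, 22736 in III and 20956 in IV. Library II held the most mir-10 at each age, and the older library I held the least of all 8. The highest value exceeded the lowest 1.68-fold at 6 weeks and 3.85-fold at 26 weeks, against 1.17-fold and 1.39-fold for lin-4. The means were 22946 ± 5276 and 23619 ± 12373 CPM (SD, n = 4 each), and the log2 difference was 0.04 ± 0.35 (SE, 95% interval -0.75 to 0.83, edgeR, Benjamini-Hochberg adjusted p = 0.948). Its sign was not stable: it was -0.12 with upper-quartile factors, -0.23 with total counts and -0.24 without the 26-week library II. Within numbers the older library was lower by 1.04 in I (log2 difference -1.04) and higher by 0.40, 0.08 and 0.20 in II, III and IV. The spread of mir-10 at 26 weeks, an SD of 0.80 on the log2 scale, was exceeded by 30 of 212 tested features, and the median feature had an SD of 0.39.

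**Figure D1:**
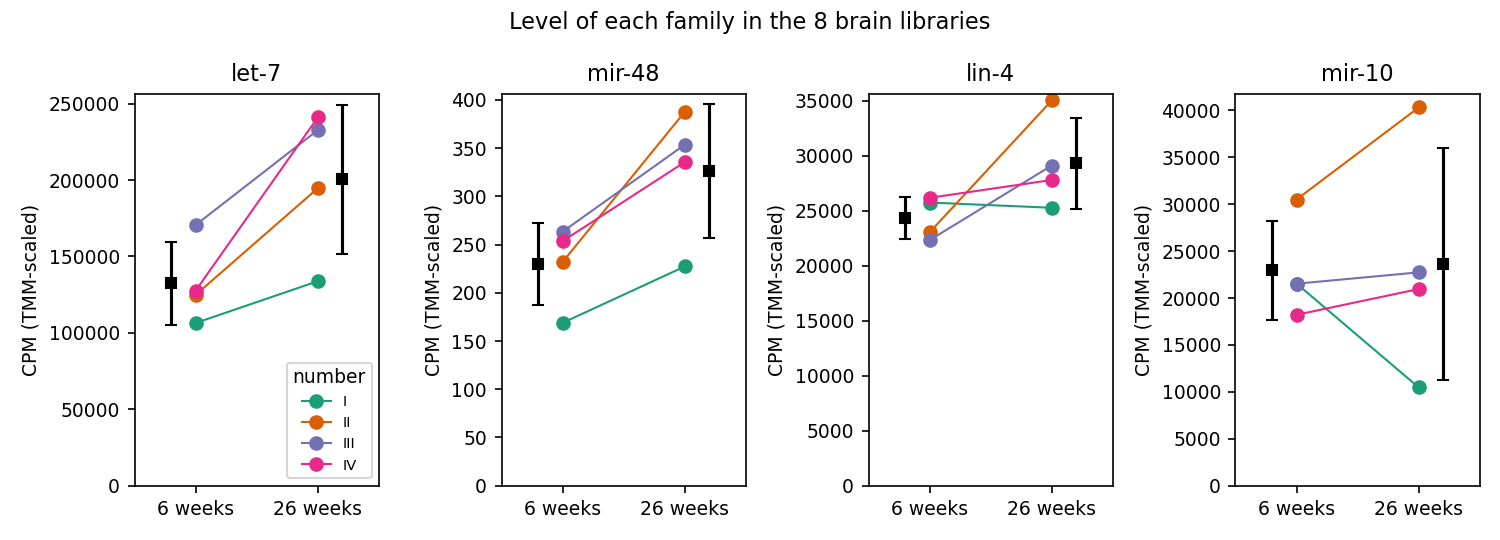
Level of let-7, mir-48, lin-4 and mir-10 in CPM (vertical axes, each from 0) at 6 and 26 weeks; coloured points are libraries, lines join libraries of the same number, and black squares with bars are means ± SD of 4 libraries. For let-7 and mir-48 all lines go up from 6 to 26 weeks, whereas for mir-10 library I goes down from 21541 to 10473 CPM and library II is highest at each age.

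In order of level, let-7 came first, and lin-4, mir-10 and mir-48 followed. The ligation and amplification steps of the library kit favour some sequences, so the order across families is less certain than the change within 1 family. Of neighbours in this order, let-7 and lin-4 were far apart in every library, and mir-48 lay far below the rest. By contrast, lin-4 and mir-10 did not differ beyond their spread: their ranks among all features were 7 to 9 for lin-4 and 7 to 17 for mir-10, and lin-4 was the lower of the pair in library II at both ages. Together the 4 members held 19.4 ± 1.81% of a 6-week library and 23.1 ± 2.95% of a 26-week library (mean ± SD of 4), most of it let-7. The younger libraries ran from 17.9% to 21.9% and the older ones from 18.9% to 25.2%, so these shares overlapped.

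Read as a group, 0 of 4 members passed in edgeR without the block after adjustment over all features, where 14.2% of tested features passed. At an unadjusted p under 0.05 the count was 2 of 4, let-7 and mir-48, against 29.2% of features. DESeq2, which called 17.9% of features, and limma-voom, which called 14.6%, each called 0 of 4. In 4 of 4 members the libraries of the ages overlapped, while 21.7% of tested features had ages that did not overlap. With the library number as a block 2 of 4 were called, let-7 and mir-48, both higher, where 27.8% of features were called in either direction and 16.5% were higher. Of the settings that left out libraries, those without the 6-week III, without the 26-week I and without both libraries I called 1 of 4, let-7, where 13.1%, 21.3% and 23.6% of features were called. With the log2 total as covariate 0 of 4 were called, and 1.89% of features. In bulk brain tissue, more cells that hold a microRNA and more of it per cell cannot be told apart.

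**Figure D2:**
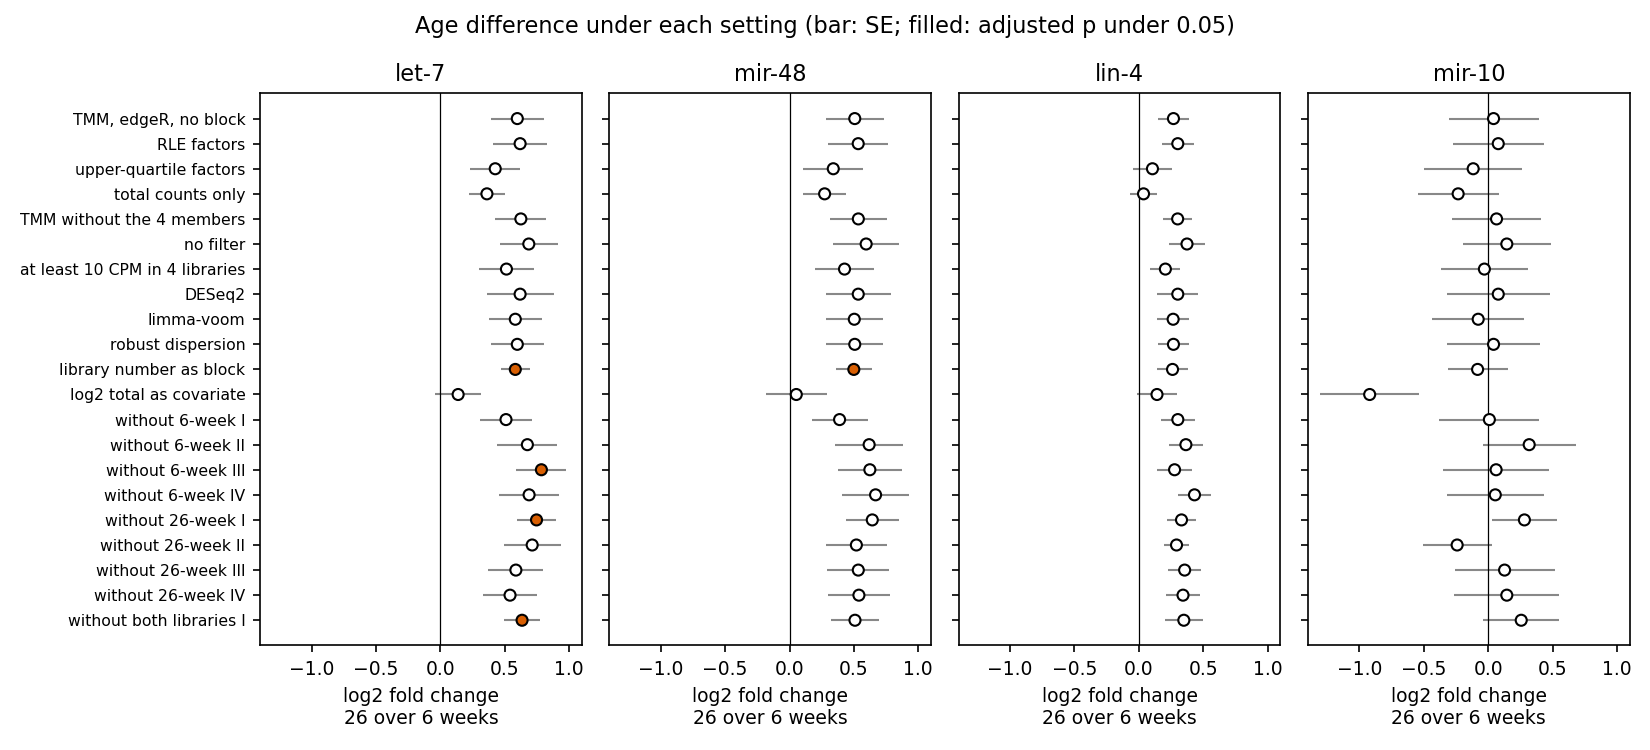
Log2 fold change of 26 over 6 weeks (horizontal axes) for each family under 21 settings of the fit (rows); bars are SE and filled points have a Benjamini-Hochberg adjusted p under 0.05. The let-7, mir-48 and lin-4 points lie right of 0 in every row, and those of mir-10 lie on both sides, from -0.92 with the log2 total as covariate to 0.32 without the 6-week library II.

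Scaling set the size of these differences. A change of scaling moves all features by nearly the same amount, so distances from their median are kept by construction and test nothing. The median log2 difference of all tested features was -0.06 with TMM factors, -0.24 with upper-quartile factors and -0.29 with total counts. Measured from that median, let-7 stood at 0.66, 0.66 and 0.65 under these 3 scalings. In the same terms mir-48 stood at 0.57, 0.58 and 0.56, lin-4 at 0.33, 0.34 and 0.32, and mir-10 at 0.10, 0.12 and 0.05. Not measured from the median, the log2 difference of let-7 was 0.60 with TMM factors, 0.43 with upper-quartile factors and 0.36 with total counts. In the same order it was 0.51, 0.34 and 0.27 for mir-48, 0.27, 0.11 and 0.04 for lin-4, and 0.04, -0.12 and -0.23 for mir-10. The TMM factors ran from 1.02 to 1.16 at 6 weeks. At 26 weeks they were 1.11 in library I and 0.861 to 0.882 in II, III and IV.

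Ratios between members within a library do not depend on scaling. The count of let-7 over that of mir-48 varied over a narrower range across all 8 libraries than the other 5 ratios, though not within the 26-week libraries, where mir-48 over lin-4 had the smaller SD (0.20 against 0.22 on the log2 scale). The ratio of let-7 to mir-48 was 629.9, 537.8, 647 and 503 in the 6-week libraries I to IV and 588, 502, 658 and 718 in the 26-week ones. Its log2 mean was 9.17 ± 0.18 in the younger and 9.26 ± 0.22 in the older libraries (SD, 4 of each; p = 0.571 in an exact permutation test, two-sided). Whether let-7 reads were counted under mir-48 was not tested. The ratio of let-7 to lin-4 ran from 4.13 to 7.64 at 6 weeks and from 5.29 to 8.67 at 26 weeks, and was higher at 26 weeks within each of the 4 numbers. Its mean log2 difference was 0.32 (exact permutation p = 0.2, adjusted p = 0.4 over the 6 ratios by Benjamini-Hochberg). Against mir-10, let-7 was at 4.94, 4.095, 7.92 and 7.01 in the younger libraries and at 12.8, 4.83, 10.2 and 11.5 in the older ones. This ratio too was higher in 4 of 4 numbers, by a mean log2 difference of 0.67, and its ages overlapped because of the older library II (exact permutation p = 0.171, adjusted p = 0.4). The ratio of lin-4 to mir-10 was higher at 26 weeks in 3 of 4 numbers, with a mean log2 difference of 0.35 (exact permutation p = 0.4, adjusted p = 0.48). The ratios of mir-48 to lin-4 and of mir-48 to mir-10 had differences of 0.24 and 0.59 (exact permutation p = 0.314 and 0.143, adjusted p = 0.471 and 0.4). Of the 6 ratios, 0 passed, and the smallest exact permutation p that 4 against 4 libraries allow is 0.0286. After adjustment over the 6 ratios, that value passes only if several ratios reach it, so the test had little power.

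**Figure D3:**
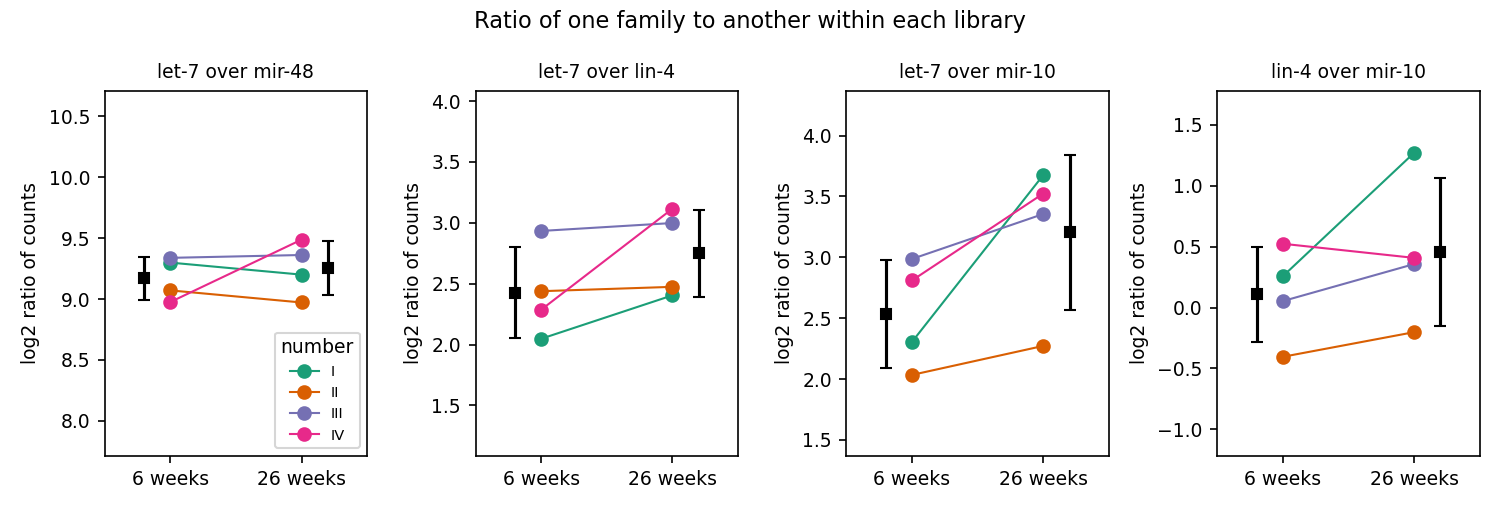
Log2 ratio of the counts of one family to those of another within each library (vertical axes, all 3 log2 units tall) at 6 and 26 weeks; lines join libraries of the same number and black squares with bars are means ± SD of 4 libraries. The ratio of let-7 to mir-48 stays between 8.97 and 9.49, whereas that of let-7 to mir-10 spans 2.03 to 3.68.

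The members split their variation differently between age and library number. For let-7, age held 49.5% of the sum of squares of log2 CPM over the 8 libraries and the library number 43.3%, which left 7.15% for the rest. For mir-48 the shares were 45.4% for age and 51.1% for the number, with 3.54% left. For lin-4 age held 46.7%, but the number held only 11.4%, and 187 of 212 tested features had a larger number share. For mir-10 the number held 70.8% and age 0.719%, and 194 tested features had a larger age share. The median tested feature had 27.8% for age and 47.2% for the number, which takes up 3 contrasts where age takes up 1. These shares are descriptions, and what a number stands for is not stated.

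**Figure D4:**
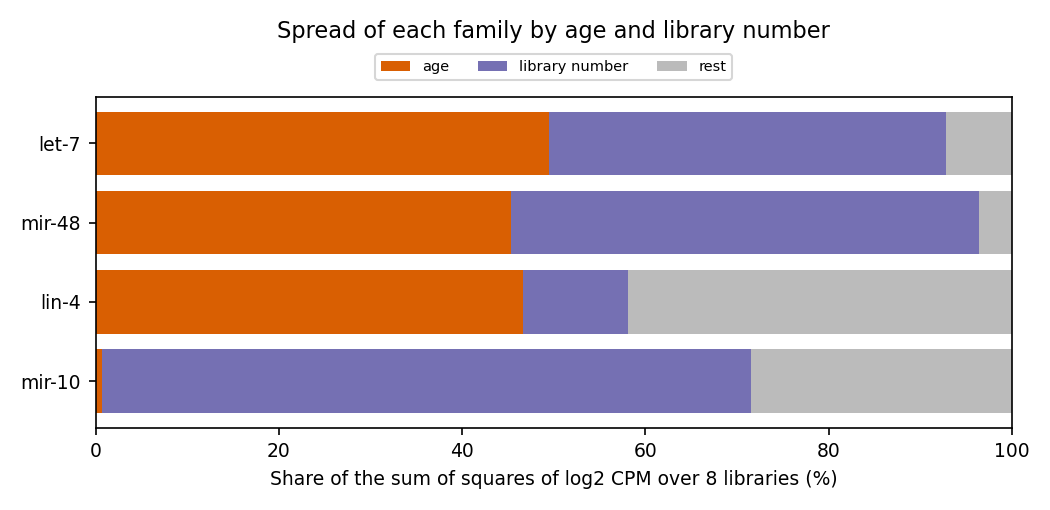
Share of the sum of squares of log2 CPM over the 8 libraries (horizontal axis, %) that went with age, with the library number and with neither, for each family. Age and number together take most of let-7 and mir-48, the rest is large for lin-4 at 41.9%, and mir-10 is mostly number at 70.8%.

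Features with the most similar profiles were found by the root-mean-square (RMS) difference of log2 CPM over the 8 libraries after centring each feature on its mean. For let-7 these were mir-126, an endothelial microRNA, with an RMS difference of 0.12, mir-458 with 0.15 and mir-26 with 0.16, against a median of 0.57 over tested features. Of the other members, mir-48 was the 7th nearest to let-7 (0.18), lin-4 the 44th (0.36) and mir-10 the 108th (0.58). The vessel wall families mir-126, mir-143 and mir-145 (3 of 3 in the table and none at 0) summed to 9022, 11089, 13193 and 11301 CPM in the younger libraries I to IV and to 10663, 14954, 18556 and 15139 CPM in the older ones. Library I was the lowest of each age for let-7 and for this sum, and the younger III was the highest younger library for both. The sum includes mir-126, the profile nearest to let-7, at means of 4604 CPM at 6 weeks and 7043 CPM at 26 weeks. Part of this shared order was therefore fixed by how mir-126 was picked, and it is not independent support. In edgeR without the block, mir-143 (log2 0.24) and mir-145 (log2 0.58) were not called. Among the older libraries the sum was highest in III and let-7 in IV, and the part of vessel cells in the let-7 values was not tested. By edgeR with Benjamini-Hochberg adjustment, mir-26 passed with and without the block (log2 0.60, adjusted p = 0.0153 without it). In the same edgeR test mir-126 (log2 0.61, adjusted p = 0.134) and mir-458 (0.68, adjusted p = 0.0890) passed with the block alone (adjusted p = 0.0241 and 0.00727).

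For mir-48 the nearest profiles were those of mir-549 (RMS difference 0.12), mir-204 of choroid plexus and pigment epithelium (0.15) and again mir-26 (0.15), and let-7 was the 9th nearest. For lin-4 they were mir-25, a relative of the miR-17-92 group (0.09), mir-129, which is enriched in neurons (0.13), and pred_39 (0.15), a predicted microRNA at a mean of only 3.66 CPM. For mir-10 the nearest were pred_619 (0.22, at a mean of 3.53 CPM), mir-1388 (0.33) and mir-21 (0.40), a microRNA raised in reactive glia, and no feature came closer than 0.22. All 3 were picked for nearness to mir-10, so low values shared with it were partly fixed by that choice and are not independent support. Their lowest value, as for mir-10, was in the 26-week library I. That library also held the largest sum of the neuroendocrine families mir-7 and mir-375, 2250.4 CPM against 696 to 832 CPM in the other 26-week libraries. Its sum of the sensory organ families mir-96, mir-182 and mir-183 was also the largest at 26 weeks, 5025 CPM against 3533 to 3917 CPM. So was that of muscle families, 1604 CPM against 1175 to 1474 CPM. The 6-week library II, with the most mir-10 of its age, had a larger sensory organ sum, 5233 CPM. Over the 8 libraries the sensory organ sum was mostly mir-182 (mean 3858 CPM) and the muscle sum mostly mir-133 (mean 1273 CPM). Of 4 listed muscle families 3 had a row. The liver and gut families mir-122, mir-192 and mir-194 summed to 202 CPM in the 26-week library II, where mir-10 was highest. In the other 26-week libraries they summed to 75.9 to 84.3 CPM. Most of the 26-week sum was mir-192 (mean 78.6 ± 55.8 CPM, SD), and mir-122 and mir-194 had means of 15.8 and 16.3 CPM. The 6-week library II, again highest in mir-10, had the lowest 6-week sum of the liver and gut families, 93.8 CPM against 106 to 120 CPM. At 6 weeks library I had the largest neuroendocrine sum too, 1635 CPM against 1076 to 1304 CPM, and its mir-10 of 21541 CPM was not the lowest. The neuroendocrine pair did not move together. From 6 to 26 weeks the mean of mir-7 went from 895 to 932 CPM and that of mir-375 from 425 to 187 CPM, neither called. At 6 weeks each alone varied widely (SD 486 CPM for mir-7 and 295 CPM for mir-375), so the sum does not show which was high in library I. The part of the neuroendocrine, sensory organ, muscle, liver and gut families in the mir-10 values was not tested. The Hox-cluster family mir-196, a relative of mir-10 by position, was at 13.8 CPM in the 6-week library I and 9.13 CPM in the 26-week library I, above the 4.44 to 6.48 CPM of the other 6 libraries. Its log2 difference between ages was -0.32 ± 0.41 (edgeR, Benjamini-Hochberg adjusted p = 0.661).

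**Figure D5:**
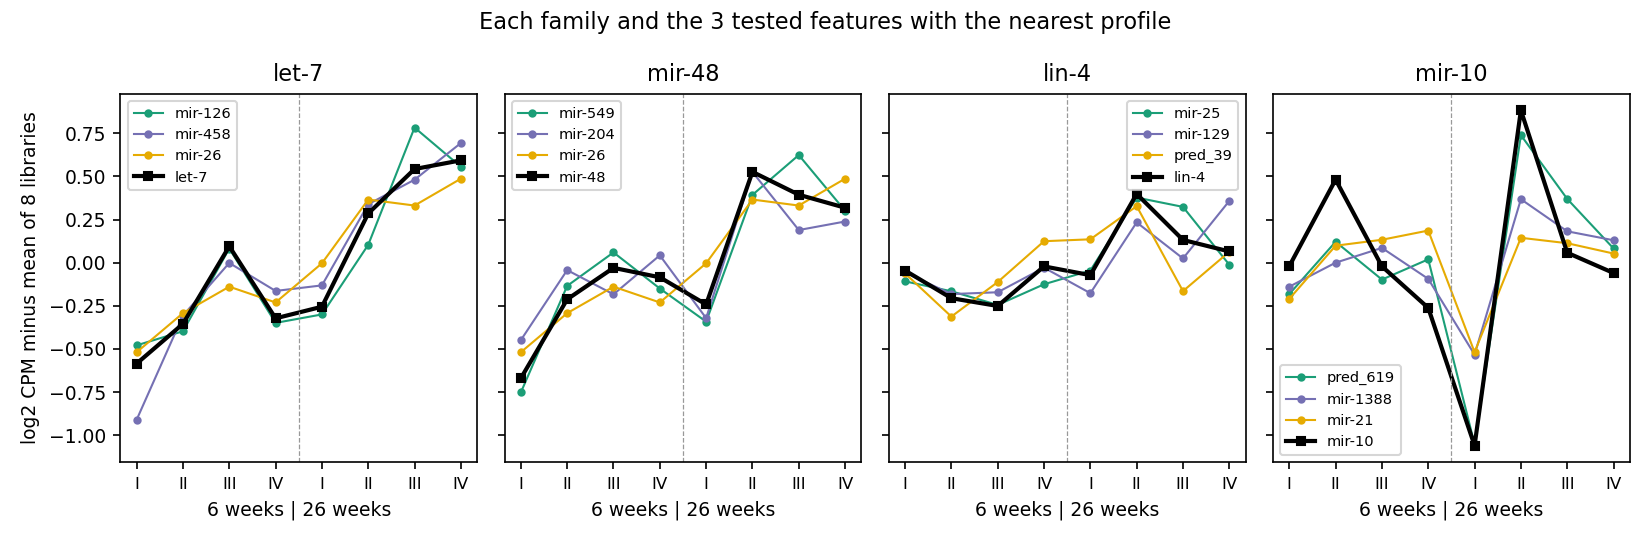
Log2 CPM of each family (black) and of the 3 tested features with the nearest profile (coloured), each minus its mean over the 8 libraries (vertical axis), across the 6-week and 26-week libraries I to IV. The let-7 panel shows mir-126, mir-458 and mir-26 close to let-7 throughout. The mir-10 panel shows a shared low value in the 26-week library I, at -1.06 for mir-10 and -1.05 for pred_619.

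Among relatives by name, 5 of 15 listed timing families had a row and were tested, the 4 members and mir-196, and 0 of 5 passed over all features by edgeR (2 of 5 with the block, 14.2% and 27.8% of all features). A list of families known from neural and glial differentiation, which includes let-7 and lin-4, had 7 of 18 tested members higher and 0 lower, against 10.4% and 3.77% of all features. The 7 were mir-29 (log2 1.69), mir-101 (1.57), the oligodendrocyte families mir-219 (1.39) and mir-338 (1.26), and mir-124 (0.92), mir-132 (0.70) and mir-26 (0.60). With the block the count was 8, the addition being let-7, and with upper-quartile factors, which called 12.3% of features, or the log2 total as covariate it was 4. The most abundant members that did not pass were mir-181 (0.00 ± 0.12) and let-7. The list's median log2 difference was 0.29, against -0.06 over all tested features. The lists were chosen with earlier results of these data known, so counts and medians only describe them and are not independent support. A list of families known from stem cells and embryos had 1 of 8 tested members higher and 1 lower, against 10.4% and 3.77% of all features. These were mir-430 (1.72, at means of only 5.06 CPM at 6 weeks and 16.7 CPM at 26 weeks) and mir-454 (-0.70). The list had a median of -0.04. Its most abundant members without a call were mir-92 (-0.31 ± 0.15) and mir-19 (-0.07 ± 0.37). The oligodendrocyte families summed to 8817 to 10347 CPM at 6 weeks and 18661 to 26728 CPM at 26 weeks, while the order of the older libraries in this sum, with III lowest, was not that of let-7. The erythroid pair mir-144 and mir-451 summed to 754 to 973 CPM at 6 weeks and to 1152 to 1311 CPM at 26 weeks. The pair did not move together. Only mir-451 was called higher, with means of 323 CPM at 6 weeks and 719 CPM at 26 weeks (edgeR, Benjamini-Hochberg adjusted p = 0.00326). The means of mir-144 were 511 CPM at 6 weeks and 533 CPM at 26 weeks (log2 0.06 ± 0.16, not called). Families of microglia and leucocytes (5 of 5 in the table and none at 0) summed to 471 to 565 CPM at 6 weeks and to 487 to 909 CPM at 26 weeks. Of the 5, 3 were called higher, mir-142, mir-150 and mir-223, against 10.4% of all features. Not called were mir-146 (log2 -0.04 ± 0.33, at a mean of 257 CPM) and mir-155 (0.45 ± 0.48, at 3.62 CPM). The part of these cell types in the values of the 4 members was not tested.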

How the data were processed

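Per the labels' protocols, brain total RNA went into TruSeq smallRNA libraries. The submitters' processing notes list BWA 0.7.12-r1039, Trimmomatic 0.36, SAMtools 1.3.1-9 and bcl2fastq 1.8.4. The authors deposited raw whole-number counts per family or predicted microRNA. How reads with several matches were counted, and against which build and annotation, is not given in the sources used here. No sequences are printed.

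Columns were matched to samples by title. No libraries of an age were near copies (chi-square per degree of freedom at least 131). Counting error was at most 4.12% of the value for mir-48 and 0.506% for the other members, and without molecular identifiers this covers counting error only. In R 4.3.3, the quasi-likelihood test of edgeR 4.0.16 compared 26 with 6 weeks on the whole table of 324 features (TMM, filterByExpr, two-sided, without covariates). P-values were adjusted by Benjamini-Hochberg over the 212 tested features, with a threshold of 0.05. SE was the size of the log2 difference over the square root of the F statistic. A prior count of 2 was added for log2 CPM. Ratios added 0.5 counts and were tested by exact permutation in SciPy 1.17.1. The fit was tested on simulated counts with planted changes larger than the differences of the 4 members, so that test does not bear on power at their size. Alternatives were DESeq2 1.42.0, voom from limma 3.58.1, and other scalings, filters, covariates and left-out libraries.

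The members and lists were chosen with earlier results of these data known. Named features were the members, the 3 nearest profiles of each, and from each list of families the called members and the 2 most abundant others. Deviations from the age means correlated by 0.287 to 0.528 between libraries of the same number (at most 0.234 between different numbers), and 8 of 8 libraries correlated best with their own number. By a limit of 0.1 for every pair, the numbers were taken to pair the libraries. The edgeR fit without covariates and the exact permutation tests between ages did not use this pairing. The fits with the number as a block did.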

Additional observations from a re-analysis of the deposited data

How the results depend on the processing

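The direction of let-7, mir-48 and lin-4 was the same under all 20 alternatives, but the log2 total as covariate took them to 0.14, 0.053 and 0.14 (adjusted p from 0.673 to 0.911 in edgeR). The number as a block called let-7 (0.58) and mir-48 (0.50), so that 2 members and 2 timing families passed and 59 features in all, and it changed no other member's call. It moved mir-10 to -0.082. Without both libraries I, let-7 passed (0.64), with 1 member, 1 timing family and 50 features called. The sign of mir-10, which passed under no setting, was also negative with upper-quartile factors (-0.12), total counts (-0.23), a minimum of 10 CPM in 4 libraries (-0.029), limma-voom (-0.078) and the log2 total as covariate (-0.92). This covariate left 4 features called in all, with 4 in the differentiation list and 0 in the stem cell and embryo list. Upper-quartile factors left 4 called in the differentiation list. The stem cell and embryo list had 1 call with no filter and 1 with the minimum of 10 CPM. The split of calls was 22 higher and 8 lower with TMM, 15 and 12 with total counts, and 15 and 11 with upper-quartile factors; the cause of these shifts was not tested.

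Leaving out 1 library at a time gave log2 differences of 0.51 to 0.79 for let-7, 0.39 to 0.67 for mir-48, 0.28 to 0.43 for lin-4 and -0.24 to 0.32 for mir-10, negative without the 26-week library II alone. Calls ran from 23 to 47 over all features (47 without the 26-week library I), 0 to 1 for the members, 0 to 1 for the timing families, 7 to 8 for the differentiation list and 1 to 2 for the stem cell and embryo list. No ratio between members passed under any alternative, and each kept its direction; the tests with fewer libraries, and that within the 4 numbers (block, smallest exact permutation p 0.125), cannot reach the threshold, so they bear on direction and size alone. Counting error was small for let-7, lin-4 and mir-10, at most 0.506% of a value, whereas pred_39 and pred_619 rest on few counts. Total count and age moved together, so an effect of depth on the members cannot be told apart from one of age.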

Other observations

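Log2 CPM of each member and log2 ratios between members, at each age, made 20 groups of 4 libraries. In 0 of the 20 did a highest or lowest library stand apart from the others by Dixon's test at the 95% level.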
